A study of Drosophila melanogaster with 4 samples.

Results

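The genes described here encode the main steps of glycolysis, with the hexokinase isozymes Hex-A and Hex-C, the dehydrogenase isozymes Gapdh1 and Gapdh2, and Ldh. They were picked by gene name, and all 10 were found among the 17628 identifiers of the count table (Pyk stands under the spelling PyK in the reference gene table). Transcripts had been sequenced from whole flies of the Oregon strain, a common laboratory stock of Drosophila melanogaster, at an age of 5 days. There were 2 libraries from galactose-fed flies and 2 from glucose-fed flies, and all 4 share strain, age and poly-A selection. The labels give neither the sex of the flies, nor the sugar dose and feeding time, nor whether libraries of a diet came from separate cultures, so each p-value rests on a spread among libraries whose source, technical or biological, is not known.

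Glycolysis splits glucose into pyruvate in the cytosol and yields ATP and NADH. Hexokinase traps the sugar as a phosphate ester, phosphofructokinase commits it to breakdown, glyceraldehyde 3-phosphate dehydrogenase makes the NADH, and pyruvate kinase forms pyruvate. Lactate dehydrogenase turns pyruvate into lactate and so returns NAD+, and in flies it is known for high activity in growing larvae, while adult flight muscle relies mainly on the glycerol 3-phosphate shuttle for that task. Galactose reaches the same pathway through the Leloir enzymes, which deliver it as glucose phosphate and so past hexokinase.

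Along the pathway, with TMM scaling of the libraries, the transcript levels of Tpi, Pfk and Pgk were the nearest to equality between the sugars. The isozyme pairs had members on both sides of equality. Gapdh1 had the largest difference of the 10 genes, at 0.68 times its glucose level in galactose-fed flies, while Gapdh2 stood at 1.13 times. Hex-C was at 0.72 times its glucose level and Hex-A at 1.11 times. Tpi, Pfk and Pgk had folds of 1.00, 0.983 and 0.970, Pgi and Pyk of 0.897 and 0.851, and Ldh of 0.774. None of the differences passed the test across all genes: edgeR's quasi-likelihood test called 0 of the 10 at an adjusted p of 0.05, where it called 0 of all 12529 genes tested (0%).

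At an unadjusted p under 0.05 edgeR had 1 of the 10, Gapdh1, against 8.24% of all genes tested. DESeq2 called 0 of the 10, where it called 0.685% of all genes, and limma-voom called 0. In the authors' deposited table, in which 0.745% of genes have an adjusted p under 0.05, none of the 10 does, and their adjusted p-values there run between 0.70 and 0.993. The members' counts ran between 616 (Ldh) and 37405 (Gapdh1) per library, so counting error was between 0.517% and 4.03% of a value, while the spread between libraries over all genes, a coefficient of variation of 0.285 by edgeR, was larger. Standard errors of the log2 fold changes were between 0.22 and 0.27. The 95% intervals of the fold changes reached at most from 0.459 (Gapdh1) to 1.63 (Gapdh2), unadjusted for the number of genes, and the interval of every member but Gapdh1 included 1.

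Total counts per library were between 21147212 and 25497099. Libraries of 1 diet differed in tissue markers. Of 15 testis markers tested 14 had a lower mean on galactose (median log2 fold change -0.45), but without glucose replicate 1 13 of 15 were higher (median 0.75). Their summed level, over the 16 found, was 994 and 1134 CPM (counts divided by a library's TMM-adjusted total, as all CPM values here) in galactose-fed flies and 698 and 2291 CPM in glucose-fed flies, the highest in glucose replicate 1, and Mst84Da was at 0 in every library. The 18 muscle markers found summed to 5983 and 7809 CPM in galactose-fed flies and 9194 and 12885 CPM in glucose-fed flies. Of the 17 muscle markers tested 16 had a lower mean on galactose, with a median log2 fold change of -0.64, and fln, a flight muscle thick-filament gene, had only 1 to 5 counts in a library. Of 16 ovary markers tested 15 had a higher mean on galactose. BicC, which was not tested, had only 0 to 2 counts in a library. The 17 ovary markers found summed to 2796 and 4186 CPM in galactose-fed flies against 1999.6 and 2787 CPM in glucose-fed flies. Fat body markers, of which 5 of 7 tested were lower on galactose, summed to 15656 and 17171 CPM on galactose and to 19244 and 22459 CPM on glucose. The yolk protein genes Yp2 and Yp3 held most of these sums, at 7861 and 6846 CPM in galactose replicate 1. The marker apolpp overlapped between diets, with a log2 fold change of 0.06, and Lsp2 had only 0 to 26 counts in a library. Neuron markers, 5 of 7 higher on galactose but 6 of 7 lower without galactose replicate 1 or without glucose replicate 2, summed to 130.0 and 217 CPM on galactose and to 114 and 187 CPM on glucose. In whole flies, fewer cells of a type and less RNA per cell cannot be told apart, and what part these tissue shifts have in the values below was not tested.

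**Figure D1:**
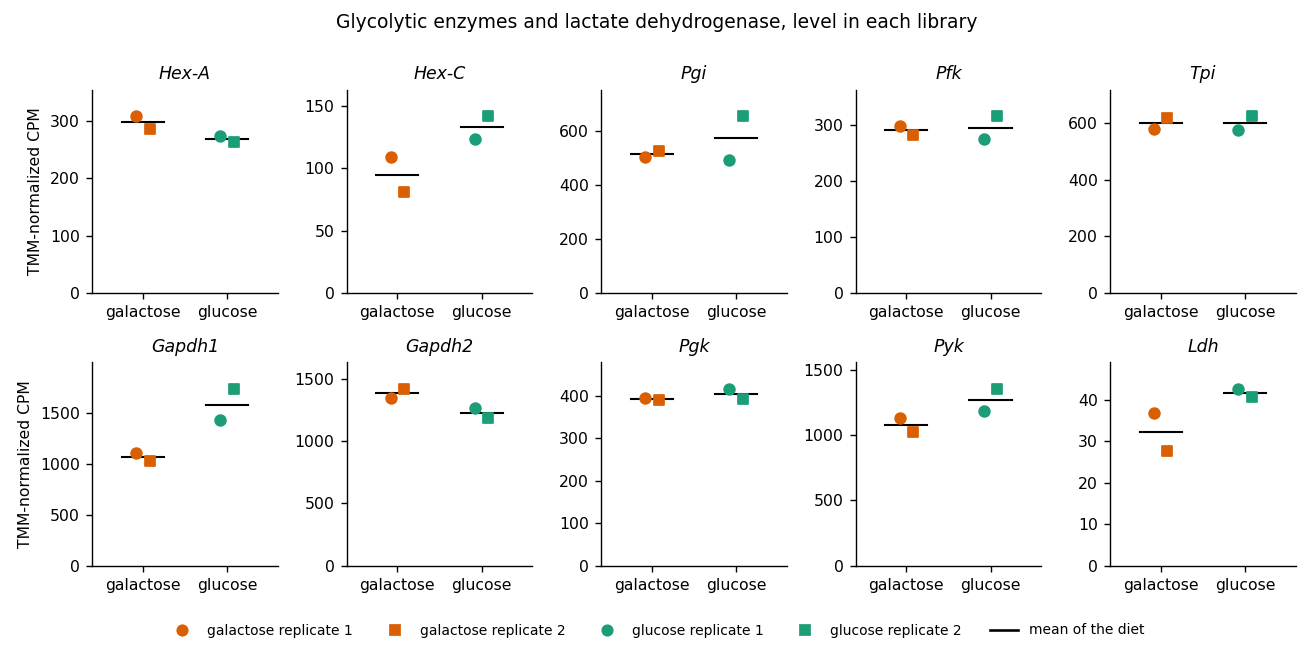
TMM-normalized CPM of each of the 10 genes (vertical axis, from 0) in the 2 galactose and the 2 glucose libraries, with a bar at the mean of each diet. Hex-C, Gapdh1, Pyk and Ldh lie lower in both galactose libraries, Hex-A and Gapdh2 lie higher in both, and the other 4 genes overlap.

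The entry step is hexokinase, which phosphorylates free glucose. Hex-A (FBgn0001186, BDGP6 chromosome X, 9585675 to 9589813), the isozyme known for flight muscle and found broadly, had 308 and 286 CPM in galactose replicates 1 and 2, against 272 and 264 CPM in glucose replicates 1 and 2. Both galactose libraries lay above both glucose libraries, by a small margin. Its log2 fold change of galactose over glucose was 0.15 ± 0.23 (SE) with an edgeR adjusted p of 0.848, and it was 0.03 without galactose replicate 1 and 0.04 with upper-quartile scaling.

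Hex-C (FBgn0001187, 2R, 15218837 to 15220329), the isozyme known from the fat body, differed in the other direction. It had 109 and 80.9 CPM in the galactose libraries, against 124 and 142 CPM in the glucose libraries. Both galactose libraries were below both glucose libraries, and the gap between the galactose replicates was of nearly the size of the gap between diets (0.43 against 0.495 on the log2 scale). The log2 fold change was -0.48 ± 0.27 (SE) with an edgeR adjusted p of 0.639, and it was -0.78 without galactose replicate 1 and -0.28 without galactose replicate 2.

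Summed, the hexokinase transcripts had 417 and 367 CPM in galactose-fed flies and 396 and 405 CPM in glucose-fed flies, so the diets overlapped in the total. The ratio of Hex-A to Hex-C counts within a library, which no library scaling can change, did not overlap. It was 2.82 and 3.53 in the galactose libraries, against 2.2 and 1.86 in the glucose libraries. The mean log2 ratio differed by 0.64, more than the largest gap between replicates of 0.33, and a two-sided exact permutation test gave p = 0.333, the smallest that 2 libraries against 2 can give. The difference was between 0.48 and 0.80 with any 1 library left out.

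The next steps rearrange and commit the sugar phosphate. Pgi (FBgn0003074, 2R, 8910900 to 8914069), glucose phosphate isomerase, had 506 and 526 CPM in galactose-fed flies, against 494 and 657 CPM in glucose-fed flies. Its galactose values lay between the glucose values, so the glucose replicates differed more from each other than the diets did. The log2 fold change was -0.16 ± 0.25 (SE) and turned to 0.07 without glucose replicate 2.

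Pfk (FBgn0003071, 2R, 10109740 to 10117457), phosphofructokinase, had 299 and 282 CPM on galactose, against 275 and 316 CPM on glucose. The diets overlapped fully. Its log2 fold change of -0.03 ± 0.24 (SE), with a 95% interval of the fold between 0.667 and 1.45, was 0.02 with median-of-ratios scaling. Tpi (FBgn0086355, 3R, 30132981 to 30134599), triose phosphate isomerase, was the gene nearest to equality with TMM scaling. It had 580.3 and 619 CPM in galactose-fed flies against 575 and 625 CPM in glucose-fed flies. The fold was 1.00, with an interval between 0.688 and 1.45. Other scalings changed which gene was nearest. It was Pgk with median-of-ratios scaling (log2 fold change 0.006) and Hex-A with upper-quartile scaling (0.04).

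Glyceraldehyde 3-phosphate dehydrogenase, which makes the NADH of glycolysis, is encoded by a pair of genes. Gapdh1 (FBgn0001091, 2R, 7791901 to 7793380) had 1109 and 1026 CPM in the galactose libraries, against 1424 and 1732 CPM in the glucose libraries. Both galactose libraries were well below both glucose libraries. The log2 fold change was -0.56 ± 0.24 (SE), with an unadjusted p of 0.0481 and an adjusted p of 0.606 by edgeR, and between -0.70 and -0.41 with any 1 library left out. With upper-quartile scaling the log2 fold change was -0.67 and with median-of-ratios scaling -0.52.

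Gapdh2 (FBgn0001092, X, 15868145 to 15869661) stood on the other side, with 1347 and 1418 CPM in galactose-fed flies against 1262 and 1184 CPM in glucose-fed flies. Its galactose values were both the higher, and the difference of the diets (log2 fold change 0.18 ± 0.22, SE, edgeR adjusted p = 0.812) exceeded the gaps between replicates. With upper-quartile scaling the log2 fold change was 0.06 and the diets overlapped. Gapdh1 and Gapdh2 encode closely similar proteins and both have 996 coding bases, and the treatment of reads that match both is not known from the labels, so the split of counts between them is uncertain.

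The ratio of Gapdh1 to Gapdh2 counts lay on opposite sides of 1 in the 2 diets. It was 0.823 and 0.724 in the galactose libraries, so Gapdh2 had more counts than Gapdh1, against 1.13 and 1.46 in the glucose libraries, where Gapdh1 had more. The mean log2 ratio differed by -0.74, where the largest gap between replicates was 0.38. The two-sided exact permutation test gave p = 0.333, again the smallest possible, and the difference was between -0.92 and -0.55 with any 1 library left out. Together the pair had 2455 and 2444 CPM on galactose and 2686 and 2916 CPM on glucose, 0.875 times, a smaller difference than that of Gapdh1 by itself.

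**Figure D2:**
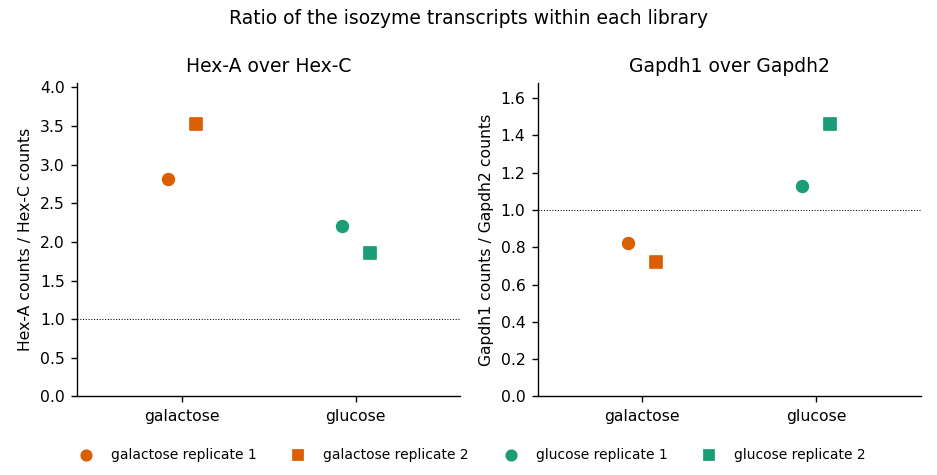
Ratio of counts within each library (vertical axes, linear, from 0) for Hex-A over Hex-C and for Gapdh1 over Gapdh2, with a dotted line at equal counts. The Hex-A ratio is 2.82 and 3.53 on galactose and 2.2 and 1.86 on glucose, and the Gapdh1 ratio is under 1 in both galactose libraries and over 1 in both glucose libraries.

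The lower part of the pathway recovers ATP. Pgk (FBgn0250906, 2L, 2746880 to 2753068), phosphoglycerate kinase, was also even, with 394 and 390.4 CPM in galactose-fed flies against 416 and 393 CPM in glucose-fed flies. The diets overlapped, the log2 fold change was -0.04 ± 0.23 (SE), and it was 0.006 with median-of-ratios scaling. The gene Cwc25 on the opposite strand covers 3.08% of its exonic bases.

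Pyk (FBgn0267385, 3R, 22367536 to 22372746), pyruvate kinase, had 1131 and 1027.5 CPM on galactose against 1182 and 1354 CPM on glucose. Both galactose libraries were the lower with TMM scaling but overlapped the glucose libraries with median-of-ratios scaling. The log2 fold change was -0.23 ± 0.23 (SE) with an edgeR adjusted p of 0.764, and between -0.37 without galactose replicate 1 and -0.13 without glucose replicate 2.

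Ldh (FBgn0001258, 3L, 6259105 to 6262694), which regenerates NAD+ by reducing pyruvate to lactate, had the fewest counts of the 10 genes in every library. Its galactose libraries had 36.9 and 27.7 CPM, against 42.7 and 40.7 CPM in the glucose libraries. The galactose libraries were both lower, yet the gap between them (0.41 on the log2 scale) exceeded the difference of the diets (0.38). The log2 fold change was -0.37 ± 0.27 (SE) with an edgeR adjusted p of 0.701, and it was -0.66 without galactose replicate 1 and -0.17 without galactose replicate 2.

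**Figure D3:**
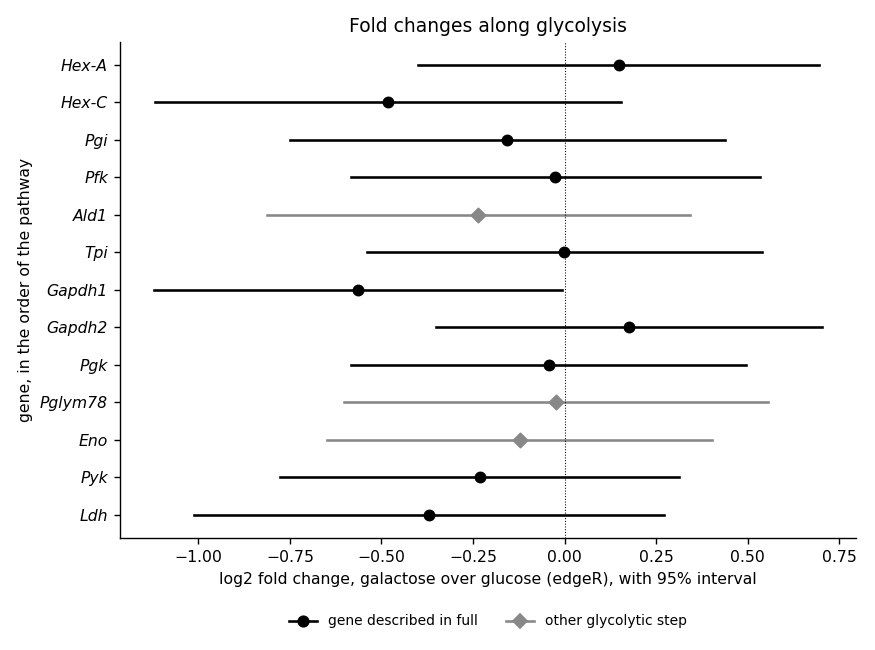
Log2 fold change of galactose over glucose (horizontal axis, edgeR estimate with its unadjusted 95% interval) for each step of glycolysis from hexokinase at the top to Ldh at the bottom. The 10 genes described are black circles and 3 further steps are grey diamonds; Gapdh1 at -0.56 lies farthest from 0 and Tpi lies at 0.

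By position, 4 of the 10 genes (Hex-C, Gapdh1, Pyk and Ldh) had both galactose libraries below both glucose libraries, a position held by 23.4% of all genes tested. For Hex-A and Gapdh2 both galactose libraries lay above, as for 18.8% of all genes. Scaling moved these counts. Median-of-ratios scaling gave 3 lower and 2 higher, where 20.6% of all genes were lower and 21.2% higher. Upper-quartile scaling gave 6 lower and 0 higher, where 27.7% of all genes were lower and 14.6% higher. For 5 of the 10 genes (Hex-A, Hex-C, Gapdh1, Gapdh2 and Pyk) the difference between diet means was larger than the gap between replicates of either diet, against 29.2% of all genes.

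The median log2 fold change of the 10 genes was -0.10, beside -0.04 for all genes tested, with 8 negative values and 2 positive ones. Of all genes tested 53.1% were negative. With median-of-ratios scaling 5 of the 10 were negative, since Pfk, Tpi and Pgk changed sign. Upper-quartile scaling moved the median of all genes to -0.15. Relative to the median of all genes the members' median was -0.06, which became -0.29 when glucose replicate 1 was left out and 0.07 when glucose replicate 2 was. Leaving out galactose replicate 1 gave 0.007, and leaving out galactose replicate 2 gave -0.06. The median was -0.0062 without glucose replicate 2 and -0.23 without glucose replicate 1, so its size depended on each glucose library.

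As a sum, the 10 transcripts took 5820 and 5684 CPM in galactose-fed flies, against 6066 and 6706 CPM in glucose-fed flies. The galactose sums were both lower, by 0.15 on the log2 scale or 0.902 times, and glucose replicate 2 was the highest. The two-sided exact permutation test gave p = 0.333, the smallest possible, and with median-of-ratios scaling the diets overlapped (p = 1). The share of all counts was 0.593% and 0.598% on galactose and 0.611% and 0.621% on glucose, and the Gapdh pair made up between 42.2% and 44.3% of the members' counts in the 4 libraries.

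Per length of exon, the span of levels among the members was wider than the difference any of them had between diets. On the RPKM scale, here TMM-normalized CPM per kilobase of merged exons, the mean levels over the 4 libraries were 903 for Gapdh2 and 894 for Gapdh1, and their ranges overlapped. Pyk followed at 524 and Tpi at 385, each with a range clear of its neighbours. Pgi at 222 and Pgk at 188 also had ranges that did not meet. By this measure Gapdh2 ranked 129 and Gapdh1 131 among 17252 genes with an annotated length.

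The hexokinases, Pfk and Ldh made up the lower end of the order. Hex-C was at 76.3, Hex-A at 68.2 and Pfk at 67.0 on the same RPKM scale, and the ranges of these neighbours overlapped, so their order is not settled. Ldh, at 19.0 with rank 4374, was the lowest in every library, and Pfk, the next in order, was at 3.52 times its level. The order also depended on the gene model. Per kilobase of the longest coding sequence, Hex-A was at 174, Pfk at 103 and Hex-C at 83.7, and Gapdh1 came before Gapdh2, so that 5 of the 10 genes kept their place. Pgi and Pgk kept theirs, but on this measure the range of Pgk (314 to 334) lay within that of Pgi (295 to 392).

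The order of the means inside both pairs differed between the diets on the RPKM scale. Gapdh1 averaged 721 ± 39.5 in galactose-fed flies and 1066 ± 147 in glucose-fed flies (SD, n = 2 each). Gapdh2 averaged 958 ± 35.0 on galactose and 847 ± 38.6 on glucose (SD, n = 2 each). Gapdh2 was the more abundant on galactose and Gapdh1 on glucose. Hex-A averaged 71.7 ± 3.73 on galactose and 64.8 ± 1.53 on glucose, and Hex-C 63.7 ± 13.4 on galactose and 89.0 ± 8.56 on glucose (SD, n = 2 each). In galactose replicate 1 the hexokinases were nearly equal, at 74.3 for Hex-A and 73.1 for Hex-C. Per coding base Hex-A had the higher level in all 4 libraries, with ratios to Hex-C of 2.36 and 2.96 on galactose and 1.85 and 1.56 on glucose, so the order within the hexokinase pair depends on the gene model.

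**Figure D4:**
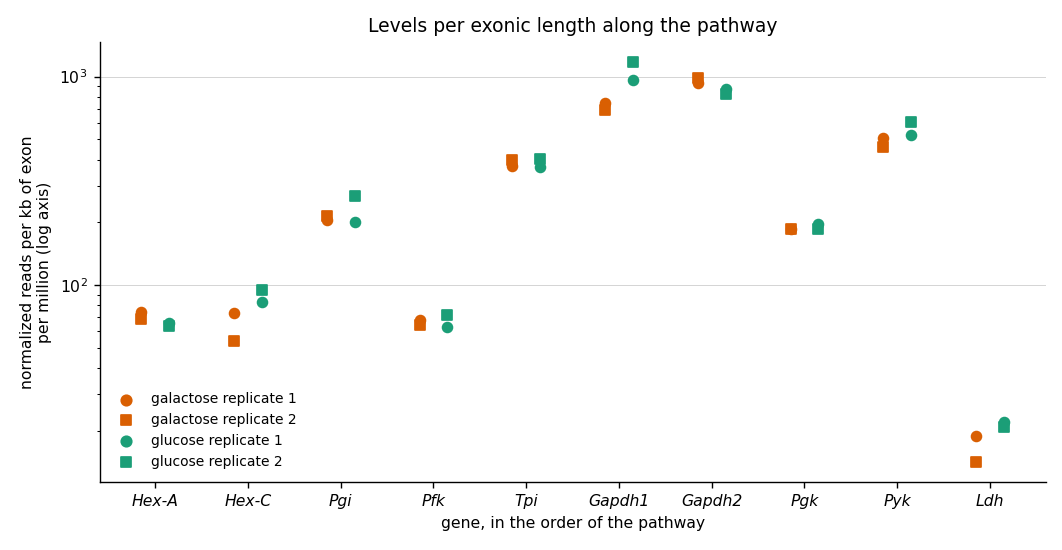
RPKM, the TMM-normalized CPM per kilobase of merged exons (vertical log axis), for the 10 genes in pathway order, with galactose libraries left of glucose libraries for each gene. Levels span from 14.3 (Ldh) to 1171 (Gapdh1) across the libraries, and the points of 1 gene lie close together beside the distance between genes.

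Gene length moved with the fold change over all genes tested. The median log2 fold change was -0.29 for 2728 genes under 1000 exonic bases, -0.12 for 4034 genes between 1000 and 2000 bases, 0.04 for 3423 genes between 2000 and 4000 bases and 0.24 for 2092 longer genes. The 10 genes have between 1443 (Gapdh2) and 4377 (Pfk) exonic bases. Gapdh1 with 1480 bases and Gapdh2 with 1443 bases are alike in length and had log2 fold changes of -0.56 and 0.18. Hex-C has 1493 bases and Hex-A has 4139, and the part of length in that difference was not tested.

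The remaining steps of glycolysis did not pass the test either. Of 4 genes in this list (Ald1, Pglym78, Eno and the regulator Pfrx) 0 passed edgeR's test over all genes, DESeq2 called 0 and 0 had an unadjusted p under 0.05. The median log2 fold change was -0.18, with 4 of 4 negative (53.1% of all genes tested), or 3 of 4 with median-of-ratios scaling. Eno, enolase, had 1317 and 1231 CPM in galactose-fed flies against 1378 and 1396 CPM in glucose-fed flies. Ald1, aldolase, had 939 and 762 CPM on galactose against 1079 and 924 CPM on glucose, and the diets overlapped.

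Pglym78, phosphoglycerate mutase, was even, with 307 and 363 CPM on galactose against 314 and 368 CPM on glucose. Pfrx makes and removes the fructose bisphosphate that activates phosphofructokinase. It had 161 and 129.95 CPM on galactose against 167 and 234 CPM on glucose, both galactose values lower, with a log2 fold change of -0.46 ± 0.28 (SE, edgeR adjusted p = 0.648).

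Paralogs of the glycolytic enzymes, several of them known from the testis, differed most between the glucose libraries. Of 10 paralogs 0 were called by edgeR over all genes, 0 by DESeq2 and 0 had an unadjusted p under 0.05. A lower mean on galactose was found for 10 of 10, against 53.1% of all genes tested, with a median log2 fold change of -0.39. Without glucose replicate 1, 9 of 10 were higher on galactose with a median of 0.48. Pglym87 had 39.1 and 35.4 CPM in galactose-fed flies, against 84.2 and 26.2 CPM in glucose-fed flies. Its glucose libraries lay on either side of the galactose libraries.

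The same pattern held for CG2964, a pyruvate kinase paralog, with 18.3 and 19.6 CPM on galactose against 38.8 and 13.9 CPM on glucose. CG11249, another such paralog, had 11.3 and 12.5 CPM on galactose against 19.8 and 11.9 CPM on glucose, again highest in glucose replicate 1. Hex-t1, a hexokinase paralog, differed from these. It had 3.94 and 3.999 CPM on galactose against 6.62 and 7.41 CPM on glucose, both galactose libraries lower, at an edgeR adjusted p of 0.607. The paralogs named before Hex-t1 were highest in the library where the testis markers' summed level was highest. That level was 2291 CPM in glucose replicate 1 and 698 CPM in glucose replicate 2, whereas the 10 main genes had a median deviation (log2, relative to each gene's mean over the libraries) of -0.01 in glucose replicate 1 and 0.13 in glucose replicate 2.

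**Figure D5:**
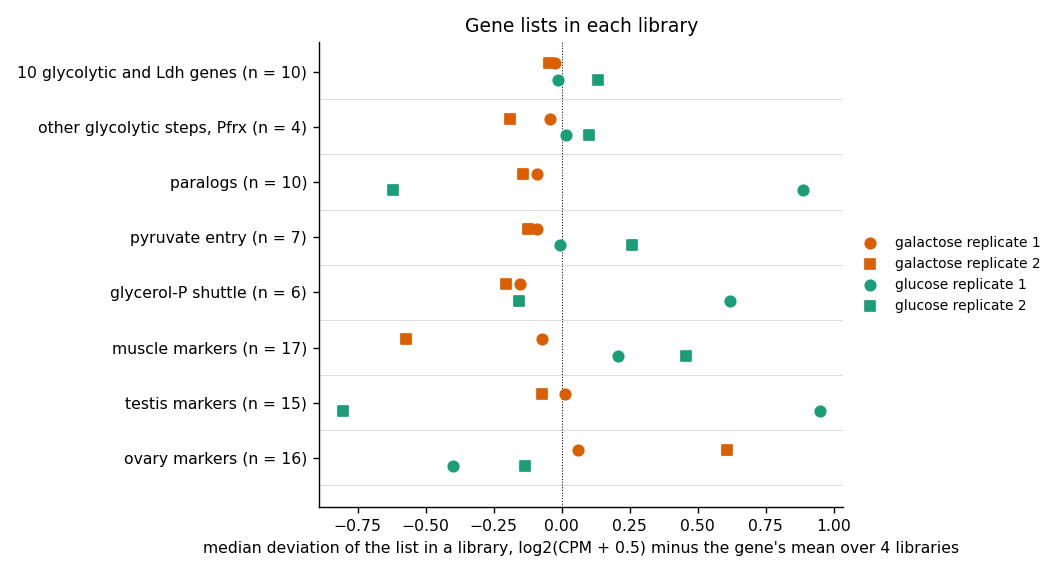
Median deviation of each gene list in each library (horizontal axis, log2(CPM + 0.5) minus the gene's mean over the 4 libraries), with the number of genes tested per list. The 10 glycolytic and Ldh genes stay between -0.05 and 0.13, whereas the paralogs and testis markers spread from -0.80 to 0.95, with the ends in the glucose replicates.

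Downstream of pyruvate, the mitochondrial entry list had 5 of 7 tested genes with a lower mean on galactose, against 53.1% of all genes tested. The median log2 fold change was -0.18, and 0 genes passed edgeR or DESeq2, with 0 at an unadjusted p under 0.05. Without glucose replicate 2 the median was -0.07. Pdhb, a subunit of the pyruvate dehydrogenase complex, had 332 and 304 CPM in galactose-fed flies against 434 and 454 CPM in glucose-fed flies. Both galactose libraries were lower by more than the replicates differed, with a log2 fold change of -0.48 ± 0.23 (SE) and an edgeR adjusted p of 0.62.

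The gene of the shared dihydrolipoamide dehydrogenase subunit, CG7430, had 368 and 318 CPM on galactose against 431 and 469.6 CPM on glucose, with both galactose libraries again lower. The pyruvate carrier gene Mpc1 had 127 and 120.2 CPM on galactose against 143 and 138 CPM on glucose, a small gap with no overlap. PCB, pyruvate carboxylase, had 321 and 374 CPM on galactose against 335 and 567 CPM on glucose and overlapped.

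The glycerol 3-phosphate shuttle, which returns NAD+ beside Ldh, had lower means on galactose for each gene listed. Of its 6 genes 6 were negative, against 53.1% of all genes tested, with a median log2 fold change of -0.41. With limma-voom, and with the replicate block in edgeR, 5 of 6 were negative. In both galactose libraries 4 of 6 lay lower, against 23.4% of all genes tested. Over all genes 0 of the 6 passed edgeR or DESeq2, and 1 had an unadjusted edgeR p under 0.05, against 8.24% of all genes. That gene was Gpo1, the mitochondrial glycerol 3-phosphate oxidase, with 241 and 168 CPM in galactose-fed flies against 337 and 435 CPM in glucose-fed flies. Its galactose values were both below the glucose values, with a log2 fold change of -0.92 ± 0.29 (SE) and an edgeR adjusted p of 0.582. The galactose replicates differed from each other by 0.52 on the log2 scale.

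The cytosolic partner Gpdh1 had 391 and 400.1 CPM on galactose against 479.6 and 487 CPM on glucose, a tight separation at a log2 fold change of -0.29 ± 0.23 (SE, edgeR adjusted p = 0.716). A long non-coding gene on the opposite strand covers 22.1% of its exonic bases, so its count is uncertain. The paralog Gpo2 had 21.7 and 23.0 CPM on galactose against 46.4 and 23.2 CPM on glucose, and Gpdh2 had 7.01 and 6.56 CPM on galactose against 10.99 and 7.27 CPM on glucose. Both were highest in glucose replicate 1, and without that library the list's median was -0.08 with 4 of 6 negative. The summed muscle markers given above were also lower in both galactose libraries, and the summed testis markers were highest in glucose replicate 1. The part of either in the shuttle values was not tested.

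Transcription factors known to act on glycolytic genes had higher means on galactose for 3 of 3 genes, where 53.1% of all genes tested were negative. It was 2 of 3 with upper-quartile scaling, without galactose replicate 2 or without glucose replicate 1. Of the 3, 0 were called by edgeR or DESeq2 and 0 had an unadjusted p under 0.05. The hypoxia factor gene sima had 132 and 167 CPM in galactose-fed flies against 97.0 and 135 CPM in glucose-fed flies, and its partner tgo had 60.7 and 91.4 CPM on galactose against 49.0 and 66.1 CPM on glucose. Both overlapped between diets and were higher in replicate 2 of each diet. ERR, the nuclear receptor known to drive glycolytic genes in fly larvae, had 2.78 and 4.85 CPM on galactose against 2.77 and 4.68 CPM on glucose. The diets overlapped, with a log2 fold change of 0.04. Genes on the opposite strand cover 52.2% of its exonic bases, so its count is uncertain.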

How the data were processed

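Poly-A RNA of whole flies had been sequenced in 4 libraries. The authors deposited raw read counts per gene, whole numbers that are not normalized. The submitters' processing notes name build BDGP6 and list HTSeq 0.6.1, TopHat2 2.0.12 and Bowtie2 2.2.3 beside DESeq2, without a strand setting for the counting. The authors' deposited table of their comparison holds a mean signal per diet (size-factor normalized counts, which the count table gave back with a largest relative deviation of 5.6e-15), a log2 fold change of glucose over galactose, and p-values; only its adjusted p-values are used.

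Counts were tested with edgeR 4.0.16 in R 4.3.3 (quasi-likelihood F test, TMM, filterByExpr with a minimum count of 10 and minimum total of 15, Benjamini-Hochberg adjustment over all genes tested, threshold 0.05, no block). All 10 members passed the filter. Single values were compared by exact permutation. Merged exons, coordinates and strand overlaps came from the BDGP6.54 annotation, which shares the BDGP6 assembly with the authors' build. The release of the authors' gene models is not known, and 17252 of the 17628 identifiers had a length in this annotation. Of 112 listed genes 108 matched an identifier, and 1 further gene is not reported here. Members and lists were chosen with earlier results of these data known. All members are named, and of each other pathway list those past the test or else the 4 with the smallest p. Alternatives were DESeq2 1.42.0, limma-voom (limma 3.58.1), other scalings and filters, a replicate block and leaving out each library; the coding length and the median relative to all genes were added after seeing the data. The fits were tested on simulated data.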

Additional observations from a re-analysis of the deposited data

How the results depend on the processing

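Over the alternatives run (test, scaling, filter, replicate block, each library left out), edgeR, DESeq2 and limma-voom called 0 of the 10 members in every case, and 98 of 110 member fold changes kept their sign. The count over all genes was 0 with edgeR but 88 with DESeq2, and between 0 and 549 without a library, 549 without glucose replicate 1 and 147 without glucose replicate 2. The members' median log2 fold change of -0.10 was -0.21 with upper-quartile scaling and between -0.23 and -0.0062 without a library; the cause was not tested. Signs changed for genes near 0. Pfk was 0.024 with DESeq2 and 0.021 with median-of-ratios scaling, and between -0.14 and 0.084 without a library. Tpi was 0.051 with DESeq2, 0.00013 with limma-voom, 0.047 with median-of-ratios scaling and 0.0013 with no filter, and between -0.0605 and 0.066 without a library. Pgk was 0.010 with DESeq2 and 0.0060 with median-of-ratios scaling, and Pgi lay between -0.35 and 0.069 without a library. The isozyme ratios, which scaling cannot change, did not overlap between diets, so leaving out a library could not reverse their direction. With TMM scaling the summed level did not overlap either, so the same holds for it. It kept its direction with both other scalings, per exonic base and, at -0.12, without the Gapdh pair. The replicate numbers shared no labelled source; deviations of same-numbered libraries correlated at 0.26 over 12529 genes, and with the replicate block edgeR called 0 genes, 0 members, and gave a members' median of -0.09. The members' counting error was at most 4.03% of a value, below the coefficient of variation of 0.285 between libraries.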
